A study of Macaca mulatta with 45 samples.

Results

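OLIG2 is a basic helix-loop-helix transcription factor of the oligodendrocyte lineage, and its row (ENSMMUG00000017652) is 1 of the 30246 gene IDs counted by total RNA sequencing in the rhesus macaque brain. The gene was chosen because its level after whole-brain irradiation had been seen to fall further in grey matter than in white matter. Its fold changes between whole-brain-irradiated and control animals, and the differences of those between regions, are therefore given as a description with no test. Tests of OLIG2 are confined to the other irradiation group and to the regions of that group's animals, although the comparison of that group with control shares the control libraries that the choice used.

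Oligodendrocytes wrap axons in myelin and arise from dividing precursor cells, which persist in the adult brain in both white and grey matter. In mice, Olig2 is needed to specify the lineage, it binds DNA together with E proteins such as TCF4 and TCF12, and it is made in precursors, in newly formed cells and, at a lower level, in mature oligodendrocytes. The precursors are marked by PDGFRA, CSPG4 and PCDH15, the newly formed stage by GPR17, and the mature cells by myelin genes such as MBP and MOBP.

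The 3 irradiation groups, of 5 animals each, gave deep white matter of the centrum semiovale, hippocampus and dorsolateral prefrontal cortex (Brodmann area 46), 1 library per animal and region, so that 45 libraries formed 9 groups. In the fWBI group the whole brain had been exposed in 8 fractions of 5 Gy, 40 Gy in sum, and tissue was taken 12 months later. In the TBI group the whole body had been exposed once, with 6.75 Gy in 2 animals, 7.2 Gy in 2 and 8.05 Gy in 1, between 6 and 9 years before death. Control animals were irradiated too, with 10 Gy to the thorax, and the labels give 0.1 Gy as the dose to their brain. All animals were perfused with saline; neither age nor sex is given in the sources used here. Dose, fractionation, field and time since exposure differ between fWBI and TBI and cannot be told apart.

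Library totals ran from 6625435 to 12541507 counts. Levels are in CPM, counts per 1000000 of the library, scaled by the TMM method over the 45 libraries, and log2 CPM has a prior count of 2. The regions carried the markers of their labels: the mean log2 CPM of 13 pan-neuronal genes was 8.53 to 8.84 in fWBI hippocampus, 8.68 to 8.85 in TBI hippocampus and 8.57 to 8.80 in control hippocampus, and it was 4.93 to 5.88 in fWBI white matter and 5.13 to 5.82 in TBI white matter. Control white matter replicates 1 and 3 stood apart, at 8.77 and 7.70, whereas the other 3 control white matter libraries had 5.28, 5.38 and 5.59. White matter comparisons were therefore repeated without these 2 libraries, a step chosen after the data were seen, and the repeated values are given where a call was gained or lost or a value moved by more than 1.5 times. In bulk tissue, fewer cells of a type and less RNA per cell cannot be told apart.

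OLIG2 was read in each of the 45 libraries, with 48 to 79 counts in fWBI prefrontal cortex at the low end and 1141 to 1823 counts in TBI white matter at the high end. In white matter it had 76.9, 71.8, 90.2, 73.2 and 108 CPM in fWBI animals, 136, 198, 170, 173 and 179 CPM in TBI animals, and 90.2, 163, 115, 153 and 176 CPM in control animals. Every fWBI library lay below every TBI library, and the fWBI range overlapped the control range only through control replicate 1, which together with replicate 3 was low. In hippocampus it had 17.3, 6.09, 8.62, 11.5 and 21.1 CPM in fWBI animals, 28.9, 32.9, 30.5, 39.7 and 39.6 CPM in TBI animals, and 30.9, 34.7, 54.3, 34.6 and 28.8 CPM in control animals. All fWBI libraries lay below all others there, and they were the most spread of the 3 groups on a relative scale. In prefrontal cortex it had 7.36, 5.43, 4.86, 5.78 and 5.01 CPM in fWBI animals, 20.9, 20.5, 21.1, 27.5 and 32.9 CPM in TBI animals, and 26.6, 31.1, 27.4, 26.6 and 23.0 CPM in control animals. The fWBI libraries were again below all the others and close to one another.

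The group means ran, from high to low, 171 ± 22.2 CPM in TBI white matter (SD, n = 5 for each group), 140 ± 35.8 CPM in control white matter, 84.1 ± 15.3 CPM in fWBI white matter, 36.7 ± 10.2 CPM in control hippocampus, 34.3 ± 5.04 CPM in TBI hippocampus, 26.9 ± 2.88 CPM in control prefrontal cortex, 24.6 ± 5.48 CPM in TBI prefrontal cortex, 12.9 ± 6.19 CPM in fWBI hippocampus and 5.69 ± 1.00 CPM in fWBI prefrontal cortex. White matter stood clear of both grey matter regions in every irradiation group. White matter after fWBI stayed above the grey matter range: the lowest fWBI white matter library had 71.8 CPM, and the highest hippocampal library of any group had 54.3 CPM. The ranges of TBI and control overlapped in each region. Of all neighbours in this order, only fWBI white matter and control hippocampus did not overlap.

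**Figure D1:**
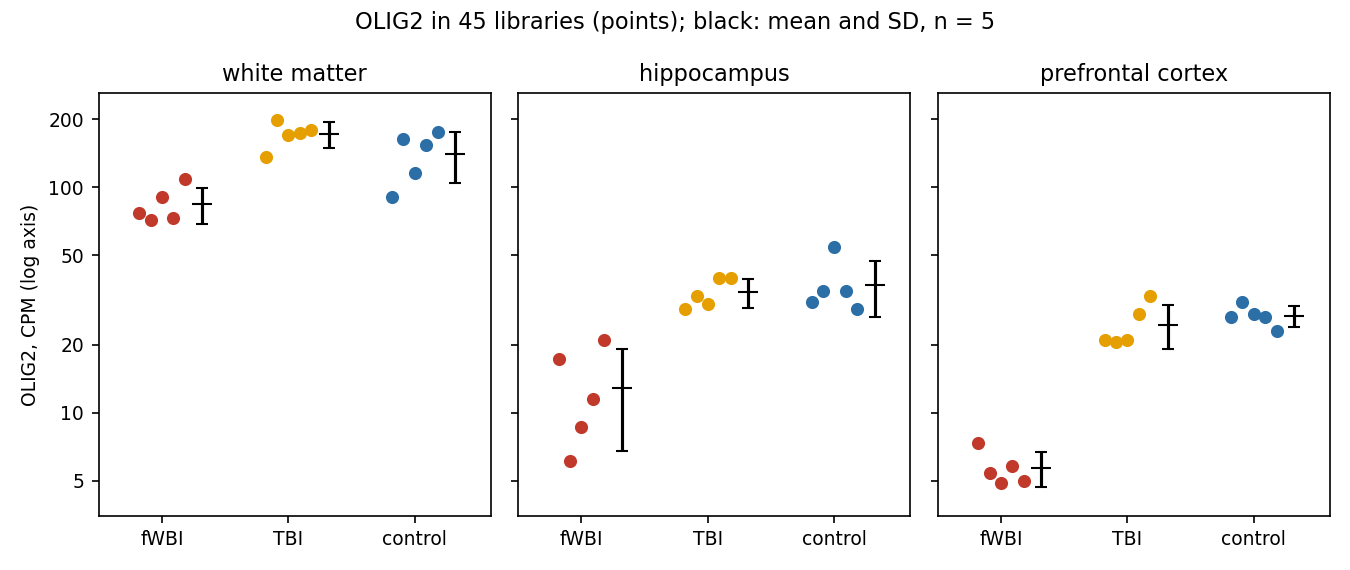
OLIG2 in CPM on a log axis, by region, for each of the 45 libraries (points); the black bar and whiskers beside each group are its mean and SD over 5 animals. The fWBI libraries sit below both other groups in hippocampus and in prefrontal cortex, where they lie between 4.86 and 7.36 CPM, and white matter is the highest region in every group.

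The differences from control were unequal in size. On the log2 scale, fWBI minus control was -0.70 ± 0.17 for white matter, -1.50 ± 0.27 for hippocampus and -2.26 ± 0.16 for prefrontal cortex (± SE of the edgeR fit, n = 5 animals per group). That is 61.4% of the control level for white matter, 35.3% for hippocampus and 20.9% for prefrontal cortex. Ordered from the deepest fall, OLIG2 stood at place 8 of 15531 genes in prefrontal cortex, at place 21 of 15357 in hippocampus and at place 1626 of 15235 in white matter. Without control white matter replicates 1 and 3 the white matter value was -0.93 ± 0.14. Set against TBI animals, fWBI animals had log2 differences of -1.01 ± 0.17 for white matter, -1.37 ± 0.27 for hippocampus and -2.12 ± 0.16 for prefrontal cortex. The regions had the same order, but these values use the fWBI libraries that the gene was chosen on. Control libraries stayed in the fit and entered its scaling and spread.

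The regions were also compared by a difference of differences over all 45 libraries, with animal as a block. The fWBI log2 change of OLIG2 was less negative in white matter than in prefrontal cortex by 1.58 ± 0.28. It was less negative in white matter than in hippocampus by 0.87 ± 0.27, and in hippocampus than in prefrontal cortex by 0.71 ± 0.29. These are the values the gene was chosen on. Without control white matter replicates 1 and 3 the first 2 were 1.22 ± 0.27 and 0.50 ± 0.26, smaller and of the same sign. The same contrast can be read inside each animal, as log2 CPM in white matter minus prefrontal cortex. It was 3.35, 3.68, 4.16, 3.62 and 4.38 in the fWBI animals, 2.69, 3.26, 3.00, 2.65 and 2.43 in the TBI animals, and 1.75, 2.39, 2.07, 2.52 and 2.93 in the control animals. In this difference no fWBI animal overlapped either other group. The mean white matter excess over prefrontal cortex was 3.83 ± 0.42 in fWBI animals, 2.81 ± 0.32 in TBI animals and 2.33 ± 0.45 in control animals (SD). White matter minus hippocampus did not separate the groups. It was 2.14, 3.52, 3.36, 2.64 and 2.35 in the fWBI animals, which overlapped both the TBI and the control animals. Its means were 2.80 in fWBI animals, 2.32 in TBI animals and 1.92 in control animals.

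The difference between TBI and control animals was not the one OLIG2 was chosen on, but it rests on the same control libraries. TBI minus control was 0.30 ± 0.17 on the log2 scale for white matter, -0.13 ± 0.26 for hippocampus and -0.14 ± 0.15 for prefrontal cortex. None passed the quasi-likelihood test of edgeR, adjusted over all genes by the Benjamini-Hochberg method (adjusted p = 0.372, 0.878 and 0.776 in that order). The 95% intervals of the log2 difference were -0.034 to 0.64 in white matter, -0.64 to 0.37 in hippocampus and -0.42 to 0.15 in prefrontal cortex. A two-sided exact permutation test of log2 CPM, whose smallest possible p is 0.0079, gave 0.159 for white matter, 0.778 for hippocampus and 0.317 for prefrontal cortex. Without control white matter replicates 1 and 3 the white matter difference was 0.064 ± 0.14 (adjusted p = 0.974, edgeR). In hippocampus the sign turned to 0.057 when control replicate 3, the highest library of its group, was left out. The TBI effect in white matter differed from that in prefrontal cortex by 0.48 ± 0.26 (adjusted p = 0.455, edgeR) and from that in hippocampus by 0.44 ± 0.26 (adjusted p = 0.46, edgeR); without those 2 libraries these were 0.14 and 0.091. Across the genome, TBI against control called 0.0722% of genes in white matter and 0% in either grey matter region by edgeR, where 11, 0 and 0 genes passed and 2751, 1661 and 1826 had an unadjusted p under 0.05; DESeq2 called 740, 60 and 254. By dose, the 2 animals given 6.75 Gy had 136 and 198 CPM in white matter, 28.9 and 32.9 CPM in hippocampus, and 20.9 and 20.5 CPM in prefrontal cortex. The 2 given 7.2 Gy had 170 and 173, 30.5 and 39.7, and 21.1 and 27.5 CPM in the same order of regions, and the single animal given 8.05 Gy had 179, 39.6 and 32.9 CPM. That animal had the highest value of its group in prefrontal cortex alone, with no test of dose in 5 animals.

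The order of the regions could be tested in the TBI animals. White matter exceeded prefrontal cortex in OLIG2 by 2.80 ± 0.11 on the log2 scale (adjusted p = 8.98e-12, edgeR with animal as a block), a 6.96-fold difference in 5 of 5 animals. It was higher in white matter than in hippocampus by 2.34 ± 0.10 (adjusted p = 4.17e-11, edgeR, 5 of 5 animals). Hippocampus exceeded prefrontal cortex by 0.46 ± 0.10 (adjusted p = 0.00355, edgeR), again in 5 of 5 animals. Most of the genome differs between these dissections: 75.2% of genes were called between white matter and prefrontal cortex, 75.1% between white matter and hippocampus and 36.8% between hippocampus and prefrontal cortex. The same 3 log2 differences, as a description, were 3.88 ± 0.23, 2.76 ± 0.21 and 1.12 ± 0.23 in fWBI animals and 2.34 ± 0.21, 1.91 ± 0.21 and 0.42 ± 0.20 in control animals.

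The other transcription factors of the lineage were called mainly in white matter, where OLIG2 was least below control. Of the 26 listed, 13 were matched by gene symbol and 11 were tested. OLIG1, SOX10, NKX2-2, NKX6-2, SOX8 and SOX9 are among those not analysed here. In white matter 4 of the 11 fell after fWBI and none rose (median of the 11 log2 fold changes -0.096, median of all genes -0.033), where 8.03% of all tested genes were called lower. MYT1, a zinc finger factor of precursors and newly formed cells, had 0.651, 0.20, 1.20, 0.996 and 0.864 CPM in fWBI white matter, 15.9, 13.5, 9.34, 13.3 and 12.3 CPM in TBI white matter, and 15.4, 17.8, 16.8, 20.2 and 18.6 CPM in control white matter. The fWBI libraries, with 2 to 12 counts each, were far below all others. MYT1 fell by 4.45 on the log2 scale (SE 0.28, adjusted p = 1.89e-07, edgeR). SOX4 and SOX5, which in mice hold back differentiation of the lineage, fell there by 1.20 and 1.04 (adjusted p = 0.00121 and 0.00245). All 4 calls held without control white matter replicates 1 and 3, where SOX5 had a log2 fold change of -0.62 (adjusted p = 0.00864). MYRF, the factor that switches on myelin genes, had 378 ± 124 CPM in fWBI white matter and 371 ± 146 CPM in control white matter (log2 fold change 0.059 ± 0.30).

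In the grey matter regions, where OLIG2 was furthest below control, few of these factors were called. SOX4 was the only one of the 11 called in hippocampus (median -0.0082 over all genes and 0.016 over the list; 0.215% of all genes called lower). It had 4.81 ± 1.15 CPM in fWBI hippocampus and 8.35 ± 0.57 CPM in control hippocampus (log2 fold change -0.80 ± 0.17, adjusted p = 0.0393, edgeR). That call was lost without any one of control replicates 1, 3, 4 and 5 or fWBI replicates 1, 3 and 4 (adjusted p between 0.0506 and 0.104). None of the 11 was called in prefrontal cortex by edgeR (list median -0.23, all genes -9.4e-05, 0.367% of all genes called lower there), where 2109 genes of all kinds had an unadjusted p under 0.05. DESeq2 called 1 of the 11, and it called more genes of all kinds there than edgeR did. MYT1 had 17.2, 18.5, 24.7, 14.8 and 12.5 CPM in fWBI hippocampus and 26.7, 23.2, 19.3, 27.4 and 30.5 CPM in control hippocampus, ranges that overlap. It had 8.95, 8.99, 10.9, 5.89 and 8.87 CPM in fWBI prefrontal cortex and 27.9, 11.2, 15.2, 12.9 and 12.5 CPM in control prefrontal cortex, which do not overlap, and its log2 fold change of -0.88 ± 0.23 missed the threshold (adjusted p = 0.0754).

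The difference between regions was tested for these genes, and where it was called its sign was opposite to that of OLIG2. The fWBI log2 change of MYT1 was more negative in white matter than in both grey matter regions. The differences were -3.60 ± 0.33 from prefrontal cortex (adjusted p = 1.85e-08) and -3.92 ± 0.32 from hippocampus (adjusted p = 3.58e-09). For SOX5 the 2 differences were -0.76 ± 0.19 (adjusted p = 0.0111) and -1.01 ± 0.20 (adjusted p = 0.0012). Both differences rest on the same white matter libraries. Without control white matter replicates 1 and 3 the SOX5 difference from prefrontal cortex was no longer called (-0.59, adjusted p = 0.0807), and its difference from hippocampus and both of MYT1 held. In all, 3 of the 11 factors were called lower in each of the 2 differences and none higher, where 5.44% of all tested genes were called lower for white matter minus prefrontal cortex and 4.86% for white matter minus hippocampus. OLIG2 stood at 1.58 and 0.87 in the same 2 differences.

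Precursor genes were called mainly in white matter as well. There 15 of 16 listed genes fell after fWBI (median log2 fold change -1.84, range -4.61 to -0.31; median of all genes -0.033), beside 8.03% of all tested genes called lower. PCDH15, a cadherin of precursors, fell to 2.24 ± 1.57 CPM in fWBI white matter, against 31.9 ± 6.92 CPM in control white matter (-3.80 ± 0.38, adjusted p = 9.64e-06). PTPRZ1, a receptor phosphatase shared with astrocytes, had 415, 362, 355, 443 and 273 CPM in fWBI white matter and 685, 998, 844, 966 and 811 CPM in control white matter, with no overlap (-1.19 ± 0.15, adjusted p = 7.25e-05). CSPG4, the NG2 proteoglycan, fell by 1.46 (SE 0.25, adjusted p = 0.000739) and CSPG5 fell by 1.98 (SE 0.15, adjusted p = 4.66e-07). PDGFRA, the growth factor receptor by which precursors are usually recognised, had 69.5, 61.2, 59.6, 63.1 and 72.8 CPM in fWBI white matter and 90.6, 71.1, 82.5, 75.8 and 92.1 CPM in control white matter. Its change was small (-0.31 ± 0.09, adjusted p = 0.0304), and the call was lost without control replicates 1, 3 or 5, without fWBI replicates 2, 3 or 4, and without control replicates 1 and 3 together (adjusted p between 0.0634 and 0.146). The member not called was C1QL1 (-0.58 ± 0.26, adjusted p = 0.143). Without control white matter replicates 1 and 3, 14 of the 16 were called, beside 3.56% of all genes called lower; NXPH1, a neurexin ligand, was then at -1.44 (adjusted p = 0.0141), against -2.20 with all libraries.

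In grey matter few precursor genes passed the test. Hippocampus had 3 of 16 called lower, namely C1QL1 (-1.83 ± 0.32, adjusted p = 0.00907), CSPG4 (-1.27 ± 0.22, adjusted p = 0.01) and PCDH15 (-1.28 ± 0.23, adjusted p = 0.0112), where the list median was -0.51 and 0.215% of all genes were called lower. The CSPG4 and PCDH15 calls were lost when only the fWBI and control libraries were fitted (adjusted p = 0.0711 for both), and that of PCDH15 with the replicate number as a block (adjusted p = 0.0745). Prefrontal cortex had 3 of 16 called lower, namely LHFPL3 (-1.70 ± 0.24, adjusted p = 0.00141), PCDH15 (-0.93 ± 0.11, adjusted p = 0.000197) and VCAN (-0.93 ± 0.18, adjusted p = 0.0155), where the list median was -0.49 and 0.367% of all genes were called lower. The VCAN call was lost without control replicate 3 or fWBI replicate 3 (adjusted p = 0.0532 and 0.0506). With DESeq2, which called more genes of all kinds there than edgeR did, 6 were called in hippocampus. PDGFRA stood at 0.0050 ± 0.081 in hippocampus and 0.086 ± 0.14 in prefrontal cortex. The 16 genes were not all highest in white matter. In TBI animals 8 were called higher in white matter than in hippocampus and 8 lower. Against prefrontal cortex 10 were called higher in white matter and 6 lower. Of all genes, 75.1% and 75.2% were called between these regions. How such levels bear on the fWBI calls in each region was not tested. The fWBI log2 change was called more negative in white matter than in prefrontal cortex for 10 of the 16 and less negative for none. The median difference was -1.02, and 5.44% of all genes were called lower in it. Against hippocampus the change was called more negative in white matter for 12, with a median difference of -1.24 and 4.86% of all genes called lower. C1QL1 was the exception, higher by 1.25 ± 0.33 against hippocampus (adjusted p = 0.0151; 4.15% of all genes were called higher in that difference), a call lost without fWBI replicate 2 or 3 or without control white matter replicates 1 and 3 (adjusted p between 0.0627 and 0.0764).

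**Figure D2:**
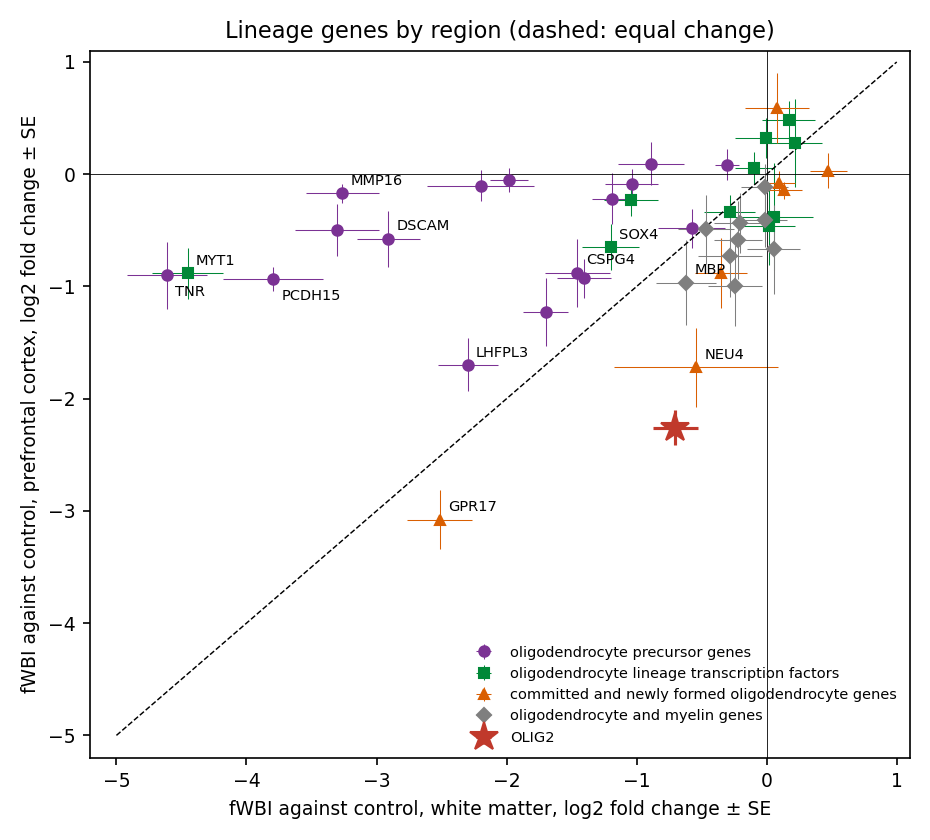
Log2 fold change of fWBI against control in white matter (horizontal) and in prefrontal cortex (vertical), with SE, for OLIG2 (star) and tested members of 4 lineage lists, without those not reported here; the dashed line marks equal change. OLIG2, at -0.70 and -2.26, lies below the line, GPR17 lies near it, and MYT1 and most precursor genes lie well above it.

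GPR17, a receptor of newly committed oligodendrocytes that is switched off as they mature, fell in all 3 regions. It had 2.70, 2.80, 5.31, 6.67 and 3.28 CPM in fWBI white matter and 16.1, 27.8, 20.9, 27.2 and 29.2 CPM in control white matter. It had 0.699, 0.702, 1.48, 2.66 and 2.10 CPM in fWBI hippocampus and 8.32, 7.86, 11.7, 9.52 and 6.50 CPM in control hippocampus. In prefrontal cortex it had 0.932, 0.562, 0.642, 0.723 and 0.939 CPM in fWBI animals, on 6 to 10 counts, and 8.84, 4.38, 7.68, 6.80 and 4.38 CPM in control animals. The groups did not overlap in any region. The log2 fold changes were -2.52 ± 0.25 (adjusted p = 7.95e-06), -2.50 ± 0.30 (adjusted p = 0.000463) and -3.08 ± 0.26 (adjusted p = 7.56e-06), and the difference between white matter and prefrontal cortex did not pass the test (0.49 ± 0.36, adjusted p = 0.437). In TBI animals GPR17 had 3.69, 3.83, 2.74, 4.17 and 2.99 CPM in prefrontal cortex, each below every control library, with a fold change that missed the threshold (-0.88 ± 0.22, adjusted p = 0.126). The TBI libraries of hippocampus, between 4.31 and 6.14 CPM, also lay below every control library there, and the fold change missed the threshold (-0.82 ± 0.27, adjusted p = 0.354). In white matter the TBI and control ranges overlapped (-0.29 ± 0.23, adjusted p = 0.544).

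Few other genes of the newly formed stage were called. Of 7 tested, GPR17 and TNS3 were called in white matter, GPR17 alone in hippocampus, and GPR17 and NEU4 in prefrontal cortex (list medians 0.080, -0.010 and -0.14). All these calls but that of TNS3 were lower. Of all genes, 8.03%, 0.215% and 0.367% were called lower in the same order of regions. TNS3, a focal adhesion protein, rose in white matter (0.47 ± 0.14, adjusted p = 0.0328, where 8.82% of all genes were called higher), a call lost in 11 of 18 other settings, among them the removal of control replicates 1, 3 or 5, of fWBI replicates 2, 3, 4 or 5, and of control replicates 1 and 3 together. NEU4, a sialidase, had 2.95 ± 1.94 CPM in fWBI prefrontal cortex and 9.69 ± 2.44 CPM in control prefrontal cortex (-1.72 ± 0.35, adjusted p = 0.0251). That call was lost without control replicate 3 or 4 or fWBI replicate 2 or 3 (adjusted p between 0.058 and 0.0781). BCAS1, ENPP6, FYN and ITPR2 were called in no region, but BCAS1 was called lower in white matter without control replicates 1 and 3 (-0.60, adjusted p = 0.0355, against -0.35, adjusted p = 0.261, with all libraries).

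Myelin genes gave no call with all libraries, and 5 in white matter without control replicates 1 and 3. Of 10 tested, none passed after fWBI in any region by edgeR with all libraries, and the list medians were -0.23, -0.095 and -0.55. In the same 3 regions 4498, 1734 and 2109 genes of all kinds had an unadjusted p under 0.05. MBP, which codes for a main protein of compact myelin, had log2 fold changes of -0.62 ± 0.23, -0.25 ± 0.37 and -0.97 ± 0.38 (adjusted p = 0.0758, 0.86 and 0.274). Without control white matter replicates 1 and 3, 5 of the 10 were called lower in white matter (list median -0.51), where 3.56% of all genes were; MBP was then at -0.83 (adjusted p = 0.0173), UGT8, an enzyme of myelin lipid synthesis, at -0.73 (adjusted p = 0.00882) and MAL, a proteolipid of myelin, at -0.49 (adjusted p = 0.00749). Within a group, myelin gene levels varied widely between grey matter dissections: the list mean ran from 5.65 to 7.26 log2 CPM in fWBI hippocampus and from 5.35 to 7.46 log2 CPM in control hippocampus.

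Pooled over the groups, OLIG2 moved with that variation, but not in every group. In fWBI white matter, replicate 5 had the highest OLIG2 of its group (108 CPM) and the lowest myelin mean (9.59 log2 CPM). With the mean of each of the 9 groups removed, OLIG2 and the myelin list mean had Pearson r = 0.757 and Spearman rho = 0.757 over the 45 libraries, a description of libraries that come 3 to an animal. In fWBI hippocampus OLIG2 minus the myelin mean lay between -2.99 and -2.82 log2 units in all 5 animals, although OLIG2 itself spanned 6.09 to 21.1 CPM. It lay between -1.27 and -0.38 in TBI hippocampus and between -1.77 and -0.49 in control hippocampus. In prefrontal cortex it lay between -2.85 and -2.23 in fWBI animals, -0.82 and -0.45 in TBI animals, and -1.46 and 0.069 in control animals. The groups fWBI and control did not overlap in either grey matter region; only the change between libraries can be read from this quantity, since levels of different genes depend on their length. In white matter the ranges did overlap, at -3.83 to -2.83 in fWBI animals, -3.09 to -2.54 in TBI animals and -3.17 to -2.80 in control animals. With the myelin mean as a covariate in the fit, fWBI minus control for OLIG2 was -1.57 ± 0.16 in hippocampus, -2.11 ± 0.12 in prefrontal cortex and -0.52 ± 0.16 in white matter.

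**Figure D3:**
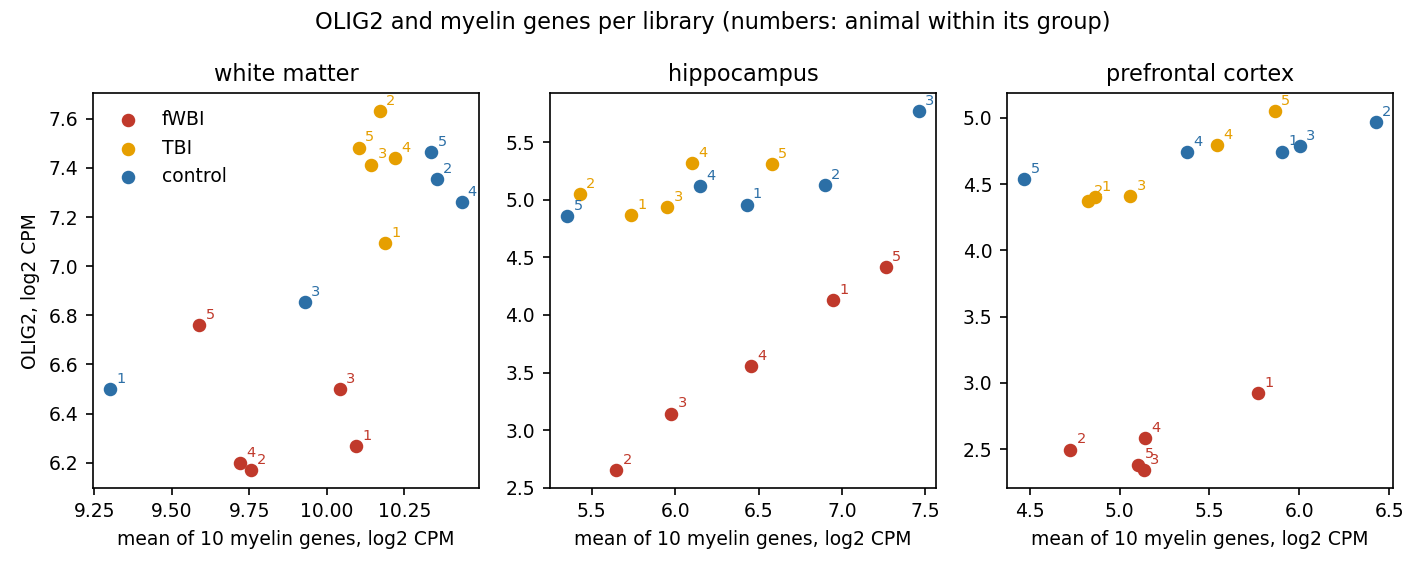
OLIG2 against the mean of 10 myelin genes, both in log2 CPM, 1 point per library, numbered by animal within its group. In the grey matter panels the fWBI points lie below the others at like myelin levels, and in white matter they overlap the control points along the horizontal axis.

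Genes whose pattern over the 45 libraries was most like that of OLIG2 depended on which means were removed. With only the region means removed, the 8 nearest of 11447 genes were P2RY12 (r = 0.857), SELPLG (0.849), GPR17 (0.846), STK32A (0.83), NKAIN4 (0.778), LHFPL3 (0.758), C3 (0.749) and TRAF4 (0.746). P2RY12 is a purine receptor and SELPLG a selectin ligand of microglia, C3 is the central complement component, and GPR17 and LHFPL3 belong to the oligodendrocyte lineage. With the group means removed as well, the nearest were QDPR (0.820), JAM3 (0.802), S1PR5 (0.793), EFS (0.784), GPR37 (0.784), PIP4K2A (0.783), SLC44A1 (0.772) and PLLP (0.767), of which S1PR5, GPR37, JAM3 and PLLP are known from oligodendrocytes. The 2 sets share no gene. By that second measure all 10 myelin genes correlated positively with OLIG2 (median r = 0.706), as did 7 of 7 genes of the newly formed stage (0.268), whereas precursor genes centred on 0 (-0.021), all 13 pan-neuronal genes were negative (-0.309) and the median of all genes was -0.013. Shared dissection, library depth and animal enter each of these values.

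SELPLG and P2RY12 are taken up here because their pattern in these same libraries was like that of OLIG2, fWBI differences included. Their p-values are therefore not independent of that choice. SELPLG was called lower in both grey matter regions. It had a log2 fold change of 0.14 ± 0.23 in white matter, -1.36 ± 0.21 in hippocampus (adjusted p = 0.00392) and -2.34 ± 0.22 in prefrontal cortex (adjusted p = 3.01e-05). Its effect in white matter exceeded that in prefrontal cortex by 2.49 ± 0.28 (adjusted p = 5.03e-07) and that in hippocampus by 1.53 ± 0.26 (adjusted p = 0.000257). P2RY12 fell in all 3 regions, by 1.36, 1.93 and 1.75 (adjusted p = 0.000382, 2.48e-05 and 5.96e-05), and its regional difference from prefrontal cortex did not pass (0.38 ± 0.22, adjusted p = 0.311). STK32A, a kinase gene chosen here by its likeness, had -0.72, -1.26 and -1.95 in the same order of regions, and C3 had 0.18, -0.69 and -1.0. The genes near OLIG2 within groups had small differences between fWBI and control animals: over the 3 regions QDPR lay between 0.097 and 0.32, and GPR37 between -0.10 and 0.043.

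**Figure D4:**
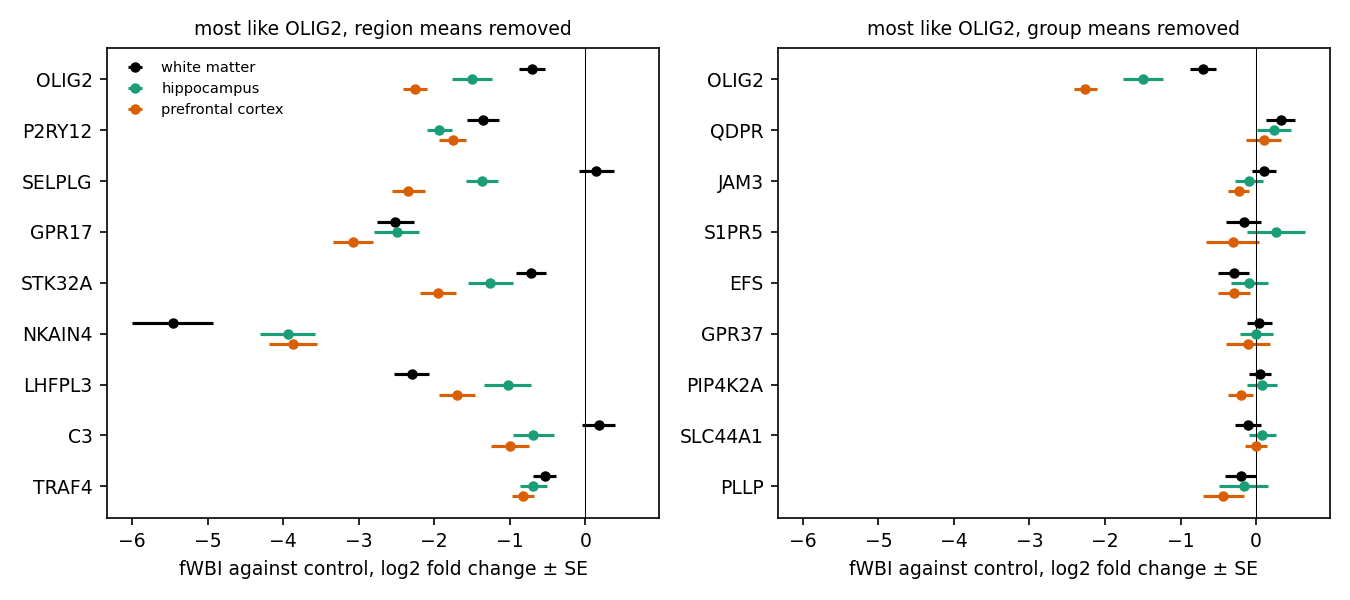
Log2 fold change of fWBI against control, with SE, in the 3 regions for OLIG2 and the 8 genes most like it with region means removed (left) and with group means removed (right). On the left most values lie below 0, with SELPLG at 0.14 and C3 at 0.18 in white matter. On the right the values of the 8 genes lie between -0.43 and 0.32.

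Partners and relatives of OLIG2 showed few changes. Of 11 tested E proteins and chromatin partners none was called in white matter, hippocampus or prefrontal cortex after fWBI (medians -0.093, -0.075 and -0.087). TCF4 stood at -0.13 ± 0.10, -0.18 ± 0.09 and -0.05 ± 0.10 log2 units and TCF12 at -0.21 ± 0.14, -0.06 ± 0.08 and 0.10 ± 0.08. TCF12 was called lower in white matter without control replicates 1 and 3 (-0.38, adjusted p = 0.0233). HDAC3, a histone deacetylase, had a higher fWBI log2 change in white matter than in prefrontal cortex (0.46 ± 0.11, adjusted p = 0.00697), where 4.57% of all genes were called higher. That call was lost with no filter on low counts (adjusted p = 0.0604). Among the related helix-loop-helix genes of neurons, NEUROD2 fell in hippocampus (-0.56 ± 0.11, adjusted p = 0.0269) and NEUROG2 rose in white matter (1.83 ± 0.56, adjusted p = 0.034) out of 4 and 3 tested. Of all genes, 0.215% were called lower in hippocampus and 8.82% higher in white matter. The NEUROD2 call was lost without control replicates 1, 4 or 5 or fWBI replicates 2, 4 or 5, when only 2 groups were fitted and with the replicate block (adjusted p between 0.0605 and 0.105). The NEUROG2 call was lost without control replicates 1, 2 or 3, control replicates 1 and 3 together, or fWBI replicates 2, 3 or 5, when only 2 groups were fitted, with the pan-neuronal covariate and with the replicate block (adjusted p between 0.0554 and 0.146). In prefrontal cortex none of 3 was called. Of the signals and receptors of the lineage, 4 of 23 fell in white matter, where 8.03% of all genes were called lower, none of 23 was called in hippocampus and none of 24 in prefrontal cortex (medians -0.12, 0.031 and -0.038). These were BMP4, a ligand that holds back precursors (-1.98 ± 0.35, adjusted p = 0.000894), LINGO1, an inhibitor of myelination (-2.19 ± 0.37, adjusted p = 0.000728), GLI3, a mediator of hedgehog signals (-0.88 ± 0.13, adjusted p = 0.000305), and IGF1, a growth factor (-1.54 ± 0.39, adjusted p = 0.0124), whose call was lost without control white matter replicates 1 and 3 (-0.77, adjusted p = 0.183). Without those libraries LINGO1 was at -1.26 (adjusted p = 0.000782), and 2 Notch pathway genes were called lower as well, the receptor NOTCH1 at -0.72 (adjusted p = 0.00865) and the ligand DLL1 at -0.93 (adjusted p = 0.00704), so that 5 of 23 were called.

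Markers of other cells moved beside OLIG2, and their part in its values was not tested. The 4 microglia genes measured (P2RY12, SELPLG, CSF1R and GPR34) summed to 67.3 to 98.8 CPM in fWBI prefrontal cortex, 84.3 to 142 CPM in TBI prefrontal cortex and 113 to 132 CPM in control prefrontal cortex; 2 of the 4 fell in each grey matter region and 1 in white matter (medians -1.17 in prefrontal cortex, -0.98 in hippocampus and -0.056 in white matter; 0.367%, 0.215% and 8.03% of all genes called lower in that order), and no member was at 0 in any group. In hippocampus they summed to 99.8 to 150 CPM in fWBI animals, 141 to 230 CPM in TBI animals and 167 to 222 CPM in control animals. Of 12 astrocyte genes, 2 rose (GFAP and GJA1) and 3 fell (SLC1A2, GJB6 and ALDOC) in white matter, where 8.82% of all genes were called higher and 8.03% lower, none was called in hippocampus, and GFAP and AQP4 rose in prefrontal cortex, where 0.805% of genes were called higher (medians 0.091, 0.25 and 0.14). Their sum was 7503 to 8096 CPM in fWBI prefrontal cortex and 6274 to 7919 CPM in control prefrontal cortex. GFAP, the filament protein of reactive astrocytes, rose by 1.08 ± 0.21 there (adjusted p = 0.0159), which was lost without control replicate 3 or fWBI replicate 2 (adjusted p = 0.0584 and 0.0507), and AQP4 by 0.60 ± 0.14 (adjusted p = 0.0489), which was lost without any one of the 10 animals other than control replicate 2. The GJA1 rise in white matter (0.54 ± 0.17, adjusted p = 0.0394) was lost without control replicates 1 or 3 or fWBI replicates 1, 3, 4 or 5, without control replicates 1 and 3 together (adjusted p = 0.212), when only 2 groups were fitted (adjusted p = 0.0546) and with the pan-neuronal covariate (adjusted p = 0.111).

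The pan-neuronal genes, 13 in number, summed to 862 to 1576 CPM in fWBI white matter, 893 to 1522 CPM in TBI white matter and 998 to 12272 CPM in control white matter; 7 of the 13 were called lower in white matter after fWBI (median -1.76), where 8.03% of all genes were, and none in either grey matter region (medians 0.019 and -0.10). The high control values are those of replicates 1 and 3, and without these none of the 13 was called in white matter (median 0.24). With the pan-neuronal mean as a covariate, fWBI minus control for OLIG2 was -0.87 ± 0.15 for white matter, -1.49 ± 0.27 for hippocampus and -2.24 ± 0.17 for prefrontal cortex. Of 12, 11 and 12 tested cell cycle genes in white matter, hippocampus and prefrontal cortex, TOP2A was called, higher in white matter (1.69 ± 0.50, adjusted p = 0.0288), where 8.82% of all genes were called higher. That call was lost without control replicates 1, 2 or 3 or fWBI replicates 2, 3 or 4, without control replicates 1 and 3 together (adjusted p = 0.153), with the pan-neuronal covariate (adjusted p = 0.105) and with the replicate block (adjusted p = 0.0725). Of 7 endothelial genes, PECAM1 and VWF rose and FLT1 fell in white matter, where 8.82% of all genes were called higher and 8.03% lower. PECAM1 also rose in hippocampus (0.73 ± 0.13, adjusted p = 0.0103), where 0.527% of genes were called higher. PECAM1 in white matter rose by 1.55 ± 0.17 (adjusted p = 1.94e-05); the VWF call (adjusted p = 0.0381) was lost without any one animal other than control replicate 2 or fWBI replicate 3, and the FLT1 call (adjusted p = 0.0385) without any one other than control replicate 2 or 5; without control replicates 1 and 3 together both were lost (adjusted p = 0.0834 for VWF and 0.199 for FLT1), and both were lost with the pan-neuronal covariate (0.0531 and 0.126) and with the replicate block (0.0881 and 0.0643). The ciliary factor FOXJ1 of ependyma rose in white matter (2.82 ± 0.32, adjusted p = 2.62e-05), 1 of 2 choroid plexus and ependyma genes tested there, where 8.82% of all genes were called higher. None of 4 was called in hippocampus or of 2 in prefrontal cortex.

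After TBI no member of any of the 13 lists was called in any region by edgeR. The precursor list had medians of -0.13 for white matter, -0.082 for hippocampus and -0.11 for prefrontal cortex, and the myelin list had 0.066, -0.64 and -0.45. With DESeq2, 1 precursor gene was called in white matter and 1 gene of the newly formed stage in prefrontal cortex. DESeq2 called more genes of all kinds than edgeR did in both of these comparisons.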

How the data were processed

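The deposited table holds whole-number counts of each gene in each of 45 libraries, not normalized by the authors. FastQC, STAR, featureCounts and DESeq2 are named in the submitters' processing notes. No version, build, annotation or strand option is given in the sources used here, so reads of a gene and of an overlapping or antisense gene may not be separable. Of 30246 IDs, 15769 had a symbol, and 141 of 175 genes in 13 lists were matched. OLIG2, the lists and the tests were chosen with earlier results of these data known.

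Counts were analysed in edgeR 4.0.16 (R 4.3.3): TMM scaling, filterByExpr, quasi-likelihood tests and Benjamini-Hochberg adjustment over all genes tested, called at 0.05. Irradiation groups were compared within a region (15 libraries). Differences between regions, and of the irradiation effects between regions over 45 libraries, were fitted with animal as a block, since each animal gave every region. The edgeR fits at their main settings were tested on simulated counts with known changes. These counts held no animal effect, and the other steps were not tested in this way. Adjusted p-values without a named tool are edgeR's. A standard error is that of the fitted log2 fold change. Likeness is the Pearson r of log2 CPM over 11447 genes with a mean of at least 1 CPM. Alternatives were DESeq2 1.42.0 and its size factors, no count filter, only the 2 groups compared, list means as covariates, a replicate block, and each animal left out. The fit that leaves out both control white matter libraries was also applied to the TBI effects and to every list in white matter, alternatives chosen after seeing the data.

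Genes were named by rule: OLIG2 in every library, any tested transcription factor, helix-loop-helix or newly formed stage gene, the first 4 tested genes and up to 3 called genes with the smallest p of each other list, and the 8 genes most like OLIG2 by each measure. VCAN, LHFPL3, C1QL1, GJA1, NXPH1, UGT8, MAL, NOTCH1 and DLL1, where outside it, were named after their values were seen. Deviations from the group mean correlated between regions of an animal (median r = 0.314, over 0.1 in 41 of 45 pairs), so animals pair the regions. No 2 replicates agreed within sampling noise. A few members of the lists are left out of the text and enter only list counts and medians. Figures used matplotlib 3.10.9.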

Additional observations from a re-analysis of the deposited data

Results flagged for a closer look

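OLIG2 in control hippocampus had 1 library apart from the others: replicate 3 had 54.3 CPM, and the other 4 had between 28.8 and 34.7 CPM. Its gap to the nearest library was 0.769 of the range of the group, and chance sets a library apart in this way in about 1 of 20 groups.

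For many genes of the lists the effect of fWBI differed between white matter and a grey matter region by a test of the difference itself. Of the 16 precursor genes, 10 had a more negative log2 change in white matter than in prefrontal cortex and 12 than in hippocampus. Among all genes, 5.44% and 4.86% were called lower in the same 2 comparisons. Single values are given here for genes named beside OLIG2. MYT1 had a more negative log2 change in white matter, with a difference of -3.60 from prefrontal cortex and -3.92 from hippocampus. SOX5 had differences of -0.76 and -1.01 in the same order of regions. SELPLG, taken up for its likeness to OLIG2, had the opposite sign, 2.49 against prefrontal cortex and 1.53 against hippocampus. HDAC3 had 0.46 against prefrontal cortex, and C1QL1 had 1.25 against hippocampus.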

How the results depend on the processing

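OLIG2 kept its sign in all but 2 of 177 recomputed values: TBI minus control in hippocampus was 0.18 with the myelin covariate and 0.057 without control replicate 3 (range -0.21 to 0.057 over animals left out); the cause was not tested. With animals left out in turn, fWBI minus control was -0.82 to -0.61 in white matter, -1.74 to -1.31 in hippocampus and -2.37 to -2.21 in prefrontal cortex. Numbers were not shown to pair animals of different groups (median r = 0.0138, over 0.1 in 15 of 45 pairs); with the replicate block these values were -0.68, -1.56 and -2.27, and TBI minus control was 0.33, -0.15 and -0.15. With no replicate block the fWBI log2 change was less negative in white matter than in prefrontal cortex by 1.56. It was less negative in white matter than in hippocampus by 0.79, and in hippocampus than in prefrontal cortex by 0.77. The region differences in TBI animals were then 2.79, 2.34 and 0.45.

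Counts of genes called moved more, and the cause was not tested. For fWBI in white matter there were 4150 with the myelin covariate, 1657 with only the 2 groups compared and 1687 without control libraries 1 and 3 (1756 to 3048 with animals left out). In hippocampus there were 277 by DESeq2 and 73 with only the 2 groups compared (72 to 266), and in prefrontal cortex 466 by DESeq2, 1922 with the pan-neuronal covariate and 293 with the replicate block (73 to 220). The fWBI effect differed between white matter and prefrontal cortex for 1055 genes without control libraries 1 and 3 (1022 to 2150), and between white matter and hippocampus for 926 (843 to 2001). For TBI in white matter there were 740 by DESeq2, 49 with the myelin covariate, 5 with only the 2 groups compared, and 0 with the pan-neuronal covariate, with the replicate block or without control libraries 1 and 3 (0 to 25). In hippocampus there were 60 by DESeq2 and 1 with the pan-neuronal covariate (0 to 3), and in prefrontal cortex 254 by DESeq2, 21 with the myelin covariate, 473 with the pan-neuronal covariate and 56 with the replicate block (0 to 23). Calls of the other named genes were lost in 54 of 602 recomputed values with all animals kept and in 117 of 1010 with an animal left out. OLIG2 rested on 48 to 79 counts in fWBI prefrontal cortex, which limits the precision of each library there. The SE of fWBI minus control was largest in hippocampus, at 0.27, against 0.17 in white matter and 0.16 in prefrontal cortex.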
